A study of Mus musculus with 12 samples.

Results

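The miR-17-92 and miR-106b-25 clusters are 2 groups of microRNA (miRNA) hairpins that are each cut from a single primary transcript. Their 9 miRNAs were chosen by name, as miR-17, miR-18a, miR-19a, miR-20a, miR-19b and miR-92a of the first cluster and miR-106b, miR-93 and miR-25 of the second. They are 9 of the 1086 miRNA names with a hairpin in the annotation. Sequenced inserts (tags) that matched one of their hairpins exactly over the whole length were counted for the 5′ or the 3′ arm of that hairpin. The 9 miRNAs took 27828 of 30022027 miRNA counts, which is 0.0927%. Counts were found for 16 of their arms, and 11 of these passed the filter of at least 10 counts in at least 2 libraries that every tested arm had to pass.

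Small RNA libraries were made from the hippocampus of individual young adult C57BL/6 male mice (strain C57BL/6NCrl in the labels), with no genetic change in any group. Mice were untreated (NT) or were killed 0.5, 1, 3, 6 or 24 h after electroconvulsive shock (ECS), a current that makes neurons fire together throughout the brain. Each of these 6 groups holds 2 libraries, 1 from a first time course (suffix -1) and 1 from a second (suffix -2), and the shock was the only treatment. Whole hippocampus mixes all of its cell types, so fewer cells of a type and less RNA per cell cannot be told apart in these values.

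An miRNA is cut from a hairpin as a duplex of 2 arms, one of which is usually kept as the guide strand and directs silencing of messenger RNAs, while the passenger arm is usually lost. Targets are recognised mainly through the seed, bases 2 to 8 from the 5′ end. Both clusters are known for promoting cell proliferation and survival, and their host genes are transcribed in dividing cells, neural progenitors among them. The adult hippocampus is composed mostly of cells that no longer divide, although its dentate gyrus keeps a progenitor pool.

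The 9 guide arms fall into 4 seed families, and members of a family are spread over both clusters in all but the miR-18a and miR-19 families. Mature sequences are shown because the families differ in the seed while their members differ in only a few bases. They are RefSeq sequences (GRCm38.p6), written 5′ to 3′ with the seed in capitals. The AAAGUGC family has members in both clusters:
miR-17-5p: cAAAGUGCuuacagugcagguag
miR-20a-5p: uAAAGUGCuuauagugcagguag
miR-106b-5p: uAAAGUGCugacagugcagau
miR-93-5p: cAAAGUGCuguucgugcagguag
miR-18a-5p differs from this family in its seed, and the miR-19 pair belongs to the first cluster alone:
miR-18a-5p: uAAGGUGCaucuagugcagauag
miR-19a-3p: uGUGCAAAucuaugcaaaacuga
miR-19b-3p: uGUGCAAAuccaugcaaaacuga
The AUUGCAC family joins the last hairpin of the first cluster to the last of the second:
miR-92a-3p: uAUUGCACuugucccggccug
miR-25-3p: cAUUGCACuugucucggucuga
The opposite arms of 3 hairpins carry results below and have seeds of their own:
miR-17-3p: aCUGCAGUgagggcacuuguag
miR-20a-3p: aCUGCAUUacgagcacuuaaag
miR-106b-3p: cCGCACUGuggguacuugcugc

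Counting from 1 at the 5′ end, miR-17-5p and miR-20a-5p had 21 of 23 bases in common, with C1U and C12U from the first to the second. miR-92a-3p and miR-25-3p shared 18 of the 21 positions compared, with U1C, C14U and C18U. miR-19a-3p and miR-19b-3p differed by U11C alone. No tag of a member matched a hairpin of another miRNA name, so members did not share counts with each other or with other miRNAs.

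On GRCm38 the hairpins of the miR-17-92 cluster lay at chr14:115043671-115044506 on the plus strand, a span of 836 bp that overlaps an exon of the long noncoding RNA gene Mir17hg. The miR-106b-25 hairpins lay at chr5:138165321-138165818 on the minus strand, a span of 498 bp in intron 13 of transcript 201 of Mcm7, which encodes a subunit of the replicative helicase. Of the 10 annotated Mcm7 transcripts, 1 has an exon over Mir93 and Mir25. Further copies of the miR-19b and miR-92a hairpins lie on the X chromosome in the paralogous miR-106a-363 cluster. All 79 miR-19b-3p counts came from tags that match both of its loci. For miR-92a-3p, 1061 of the 1074 counts that could be placed at 1 locus came from chromosome 14, which is 98.8% (95% Wilson interval 97.9 to 99.3, counting error only).

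The libraries held between 439336 (6h-1) and 4282006 (NT-2) miRNA counts, with medians of 1431382 in the first and 4015613 in the second time course. The study's own read counts give NT-1 more known miRNA reads than NT-2, whereas the deposited NT-1 held 1067558 miRNA counts and NT-2 4282006. The untreated labels may therefore be exchanged between the study and the deposit. Every comparison by time course here rests on the deposited labels. Of the miRNA counts of NT-1, 51.4% were tags of 18 or 19 nt, against 4.54% to 16.9% in the other libraries of the first time course and 0.91% to 3.78% in the second. Marker miRNAs were compared in CPM, the counts of a miRNA for every 1000000 miRNA counts of the library. The 5 neuronal miRNAs (miR-124, miR-128, miR-9, miR-132 and miR-138) were all present. They summed to 199209 ± 62279 CPM in the first time course and to 100306 ± 36487 CPM in the second (SD, n = 6 each), which was lower at 6 of 6 times, with miR-138 alone not overlapping. The 3 erythroid miRNAs (miR-451, miR-144 and miR-486) summed to 333 to 1992 CPM in the first time course and to 168 to 259 CPM in the second, without overlap, but this sum was carried by miR-144 (means of 874 and 58.7 CPM). miR-451a had means of 33.1 and 54.0 CPM and miR-486 of 97.1 and 92.5 CPM, both with overlap. The 3 vascular miRNAs (miR-126, miR-143 and miR-145) summed to 63027 to 144673 CPM in the first and 5645 to 16493 CPM in the second, almost all of it miR-143. miR-145 did not overlap either, while miR-126 did, with means of 252 and 197 CPM. The 3 leukocyte and microglial miRNAs ranged from 996 to 9788 CPM in the first and from 163 to 2319 CPM in the second, nearly all of it miR-142. The rarer ones went the other way, miR-150 with means of 1.32 and 4.28 CPM and miR-223 with 0.431 and 0.613 CPM, both with overlap. The 2 oligodendrocyte miRNAs ranged from 2728 to 18207 CPM over all libraries. The choroid plexus list summed to 15.3 to 349 CPM with miR-211 at 0.

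To learn how much of each member the hippocampus holds, levels were first compared between members. The miR-106b-25 cluster was the more abundant. Both arms of its 3 hairpins together took 0.0675% ± 0.0232 (SD, n = 12) of the miRNA counts, with values from 0.0252% in 3h-1 to 0.112% in 1h-2. Both arms of the 6 hairpins of miR-17-92 together took 0.0131% ± 0.00868 (SD, n = 12), from 0.00253% in 3h-1 to 0.0354% in 0.5h-2. The miR-106b-25 hairpins supplied between 86.4% and 95.5% of the guide counts of both clusters in every library. Guide counts leave out the opposite arms, among them miR-17-3p with 2379 counts and miR-106b-3p with 2147. With both arms counted, 0.5h-2 had 0.0923% for miR-106b-25 and 0.0354% for miR-17-92. By seed, the AUUGCAC family had the highest mean at 0.0419% ± 0.0273 (SD, n = 12), followed by the AAAGUGC family at 0.0202% ± 0.0108 (SD, n = 12). In 0.5h-2 (0.0477% against 0.0432%) and in 6h-2 (0.0284% against 0.0194%) the AAAGUGC family was the larger.

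**Figure D1:**
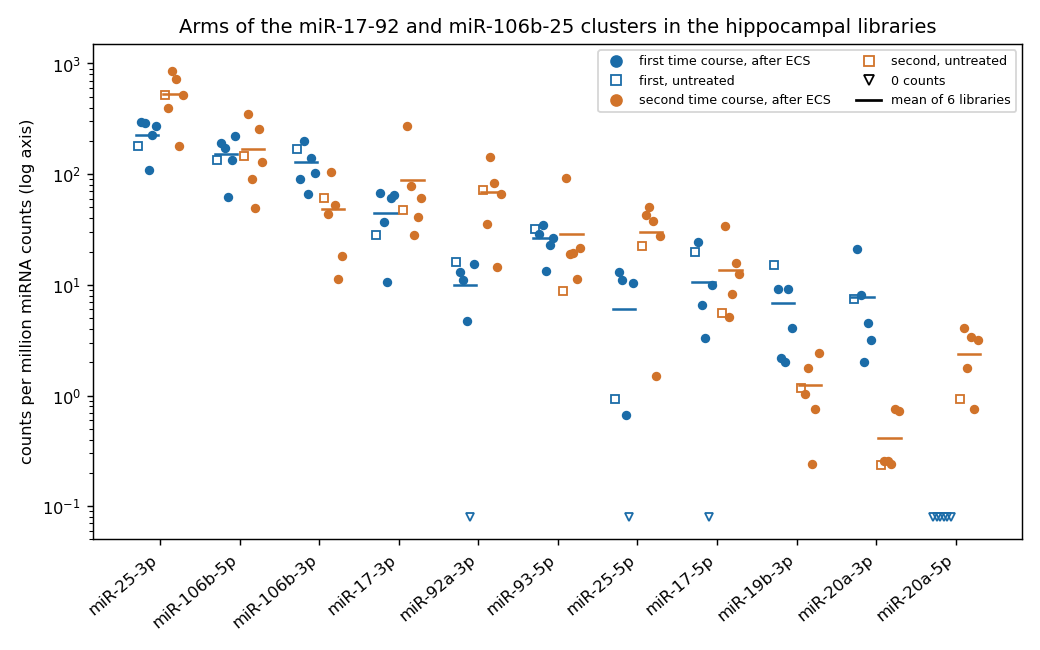
Level of each tested arm in each of the 12 libraries, in CPM on a log axis, with the first time course in blue and the second in orange. Squares are untreated libraries, circles libraries after ECS, triangles libraries with 0 counts and bars means of 6 libraries. The miR-20a-5p points of the first time course are all at 0 counts, and miR-25-3p is the highest arm at a mean of 380 CPM over all libraries.

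miR-25-3p was the most abundant guide arm. In the first time course its levels were 178 CPM in NT-1, 294 CPM in 0.5h-1, 289 CPM in 1h-1, 109 CPM in 3h-1, 225 CPM in 6h-1 and 270 CPM in 24h-1. In the second they were 519 CPM in NT-2, 397 CPM in 0.5h-2, 854 CPM in 1h-2, 721 CPM in 3h-2, 179 CPM in 6h-2 and 521 CPM in 24h-2. Of the second time course, only 6h-2 lay within the range of the first. miR-25 shares its seed with miR-92a and is the third hairpin of its cluster.

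miR-106b-5p, of the AAAGUGC family, followed with a mean of 161 CPM. It stood at 135 CPM in NT-1, 191 CPM in 0.5h-1, 172 CPM in 1h-1, 62.6 CPM in 3h-1, 134 CPM in 6h-1 and 219 CPM in 24h-1. The second time course gave 147 CPM in NT-2, 346 CPM in 0.5h-2, 91.0 CPM in 1h-2, 49.9 CPM in 3h-2, 256 CPM in 6h-2 and 130 CPM in 24h-2. The lowest value of both time courses was that at 3 h, and the ranges overlapped.

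Mean levels over 12 libraries of the other guide arms were 39.6 CPM for miR-92a-3p, 27.6 CPM for miR-93-5p, 12.1 CPM for miR-17-5p and 4.07 CPM for miR-19b-3p. The remaining 3, miR-18a-5p at 2.35 CPM, miR-20a-5p at 1.18 CPM and miR-19a-3p at 0.527 CPM, rested on 46, 55 and 5 counts over all libraries. In a library, 3 counts correspond to between 0.701 and 6.83 CPM, and lower levels could not be told from 0 there. miR-19a-3p had no more than 2 counts in any library.

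Whether neighbours in this order differ beyond the spread between libraries was tested on within-library ratios (exact permutation test over all sign flips of 12 libraries, two-sided, Benjamini-Hochberg over 8 neighbour pairs). The order was taken from the same 12 libraries, so these p-values describe the spread only and do not test the order. Libraries of a time course also deviated together, so the 12 are not independent. miR-25-3p lay above miR-106b-5p in 11 of 12 libraries (adjusted p = 0.0078), and miR-106b-5p above miR-92a-3p in 10 of 12 (adjusted p = 0.0078). miR-93-5p lay above miR-17-5p in 11 of 12 (adjusted p = 0.0078), and these 3 pairs also passed in each of 12 repeats that left out a library. miR-17-5p lay above miR-19b-3p in 11 of 12 (adjusted p = 0.0352), but this pair passed in only 3 of the 12 repeats and not with a pseudocount of 0.1 (adjusted p = 0.116). Its mean log2 ratio was 0.32 in the first time course (exact permutation p = 0.6875) and 3.19 in the second (exact permutation p = 0.03125). The other 4 pairs did not pass, namely miR-92a-3p with miR-93-5p (adjusted p = 0.825), miR-19b-3p with miR-18a-5p (0.172), miR-18a-5p with miR-20a-5p (0.485) and miR-20a-5p with miR-19a-3p (0.188).

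Part of this order was not the same in the 2 time courses. miR-92a-3p lay below miR-93-5p in 6 of 6 libraries of the first time course and above it in 5 of 6 of the second. miR-18a-5p lay above miR-20a-5p in 6 of 6 libraries of the first and in 1 of 6 of the second. Within a time course the smallest p that 6 libraries allow is 0.03125 before adjustment, and the lowest adjusted p of the exact test was 0.05 in the first and 0.15 in the second.

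Hairpins of 1 transcript were not equally represented as mature miRNAs. In miR-17-92, miR-92a-3p had 1744 counts, miR-17-5p 383, miR-19b-3p 79, miR-20a-5p 55, miR-18a-5p 46 and miR-19a-3p 5. The deeper second time course gave 1648 of the 1744 miR-92a-3p counts. In the first, miR-17-5p had 100 counts, miR-92a-3p 96, miR-19b-3p 51, miR-18a-5p 26, miR-19a-3p 4 and miR-20a-5p 0, so miR-92a-3p did not exceed miR-17-5p there. In miR-106b-25, miR-25-3p had 14445 counts, miR-106b-5p 4767 and miR-93-5p 879. These are counts of cloned tags, and cloning and sequencing do not capture every sequence equally.

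The balance of the 2 arms of a hairpin is free of the scaling between libraries and was examined next. In the miR-17 hairpin the arm outside the list of guide arms was the more abundant. miR-17-3p made up 86.1% of its 2762 counts (95% Wilson interval 84.8 to 87.4) and exceeded miR-17-5p in 12 of 12 libraries. Its share was 58.8% in NT-1, 73.5% in 0.5h-1, 84.7% in 1h-1, 76.2% in 3h-1, 100% in 6h-1 and 86.7% in 24h-1. In the second time course it was 89.5% in NT-2, 88.9% in 0.5h-2, 93.8% in 1h-2, 77.3% in 3h-2, 72.0% in 6h-2 and 83.0% in 24h-2. The lowest share was that of NT-1, and the 2 time courses overlapped.

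The 2 arms of miR-106b were closer in abundance. miR-106b-3p made up 31.1% of 6914 counts (95% Wilson interval 30.0 to 32.2), and it was the more abundant arm in 6 libraries and the less abundant in the other 6. Its share in the first time course was 55.4% in NT-1, 32.1% in 0.5h-1, 53.9% in 1h-1, 51.5% in 3h-1, 51.2% in 6h-1 and 31.6% in 24h-1. In the second it was 29.4% in NT-2, 11.3% in 0.5h-2, 53.3% in 1h-2, 51.3% in 3h-2, 4.25% in 6h-2 and 12.3% in 24h-2. At each of the 6 times the second time course had the lower share, although the ranges overlapped. Over all miRNAs with both arms counted, 36 of 161 names (22.4%) likewise had a more abundant arm that was not the same in all 12 libraries.

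miR-25-5p was a minor arm with 5.20% of 15238 counts (95% Wilson interval 4.86 to 5.57). Its share was 0.524% in NT-1, 4.27% in 0.5h-1, 3.68% in 1h-1, 0.610% in 3h-1, 0% in 6h-1 and 3.70% in 24h-1. In the second time course it was 4.18% in NT-2, 9.64% in 0.5h-2, 5.58% in 1h-2, 4.93% in 3h-2, 0.837% in 6h-2 and 5.02% in 24h-2. The second time course was higher at 6 of 6 times, again with overlapping ranges. miR-93-3p and miR-92a-5p were rarer still, at 0.790% of 886 counts and 1.19% of 1765 counts.

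The miR-20a hairpin was the exception. Its first time course held 68 counts of miR-20a-3p and 0 of miR-20a-5p, and its second held 8 of miR-20a-3p and 55 of miR-20a-5p. miR-20a-3p had 8 counts in NT-1, 37 in 0.5h-1, 11 in 1h-1, 3 in 3h-1, 2 in 6h-1 and 7 in 24h-1, and between 1 and 3 in each library of the second. miR-20a-5p had 4 counts in NT-2, 16 in 0.5h-2, 7 in 1h-2, 14 in 3h-2, 1 in 6h-2 and 13 in 24h-2. Neither arm overlapped between the time courses as a share of miRNA counts. Of the miR-20a-3p counts, 61 of 76 were the single 19-nt tag shown here, in which the seed is in capitals and which ends 3 bases short of the RefSeq arm:
miR-20a-3p tag: aCTGCATTacgagcactta

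**Figure D2:**
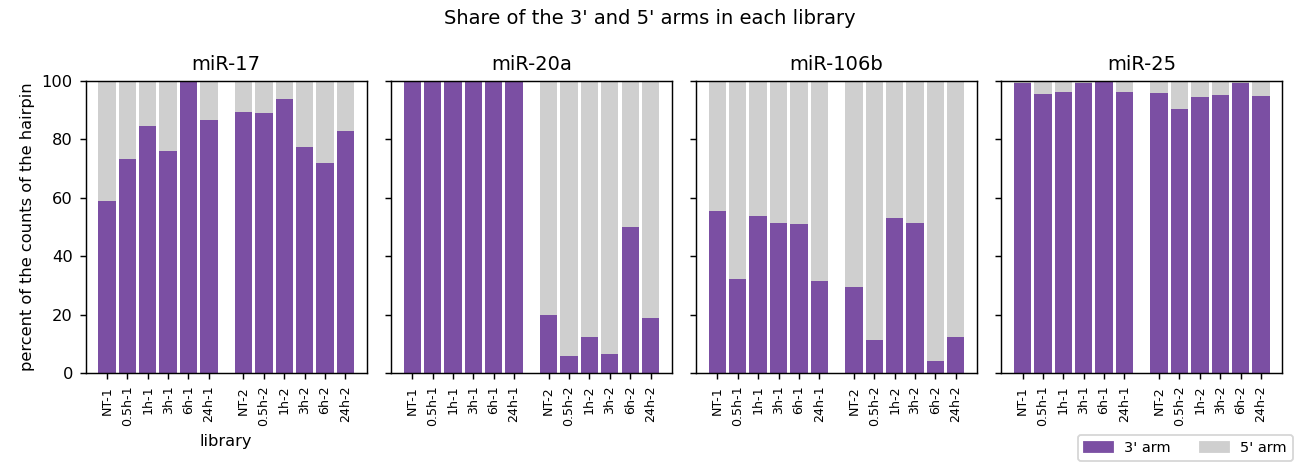
Percent of the counts of 4 hairpins that fell on the 3′ arm (purple) and the 5′ arm (grey) in each library, with the first time course on the left and the second on the right of each panel. miR-17-3p exceeded miR-17-5p in all 12 libraries, and the miR-20a bars, which rest on 131 counts in all, were entirely 3′ arm in the first time course.

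The 4 members whose arms together reached 10 counts in each library (miR-17, miR-106b, miR-93 and miR-25) were tested for a difference between time courses (exact permutation test over all 64 flips of libraries within a time, two-sided, Benjamini-Hochberg over the 4). miR-106b-3p averaged 46.0% ± 11.0 of its hairpin in the first time course, against 27.0% ± 21.3 in the second (SD over 6 libraries each, exact permutation p = 0.03125, adjusted p = 0.0625). miR-25-5p averaged 2.13% ± 1.94 against 5.03% ± 2.82, with the same p and adjusted p in this exact test. That p is the smallest the design allows, and 36 of all 161 names with both arms (22.4%) reached an unadjusted p below 0.05. miR-17-3p differed by 4.11 percentage points (adjusted p = 0.833, same exact permutation test) and miR-93-3p by 0.134 (adjusted p = 0.875). None of the 4 passed the adjusted threshold. miR-20a had too few counts for this test.

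The ends of the tags were compared because trimmed or extended forms of an arm can differ between libraries. Among the 13 member arms with at least 20 counts, between 94.3% and 100% of the tags began at the base where the RefSeq arm begins, so nearly all kept the annotated seed. Their 3′ ends varied. The most frequent tag of miR-93-5p and of miR-25-3p was 20 nt long, shorter than the RefSeq arms of 23 and 22 nt. These tags are shown as deposited, as DNA letters with the seed in capitals:
miR-93-5p tag: cAAAGTGCtgttcgtgcagg
miR-25-3p tag: cATTGCACttgtctcggtct
They made up 63.1% and 49.5% of the counts of their arms. The miR-93-5p tag had 53 of 220 counts in the first time course, where the 21-nt form had 52. In the second time course it had 502 of 659, and 363 of those 659 arm counts were from 0.5h-2. The most frequent miR-92a-3p tag was longer than the RefSeq arm by a base, at 22 against 21 nt, and held 57.9% of that arm's counts. In the first time course it had 37 counts, against 41 of the 20-nt form.

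Mean tag length was tested for the 3 guide arms counted often enough in every library (exact permutation test over 64 flips, two-sided, Benjamini-Hochberg over the 3). For miR-106b-5p the mean length was 19.5 nt in NT-1 and 20.02 to 20.81 nt in the other libraries of the first time course, and 20.9 to 21.4 nt in the second, without overlap. The means of the time courses were 20.2 ± 0.496 and 21.3 ± 0.189 nt (SD, n = 6 each), a difference of 1.03 nt with p = 0.03125 and adjusted p = 0.0938 in this exact test. miR-25-3p tags were 0.475 nt longer in the second (adjusted p = 0.125, exact test) and the difference of miR-93-5p was -0.347 nt (adjusted p = 0.125, exact test). None passed the adjusted threshold. When only the first 18 nt of a tag had to match the hairpin, all 3 arms were longer in the second time course (adjusted p = 0.03125 each, exact test), with miR-93-5p longer by 1.11 nt instead of shorter. Tags of 18 or 19 nt were rarer there over all miRNA counts too, at 0.91% to 3.78% against 4.54% to 51.4% in the first. The share of other miRNA arms that differ in length was not computed, so longer tags cannot be read as particular to the members.

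**Figure D3:**
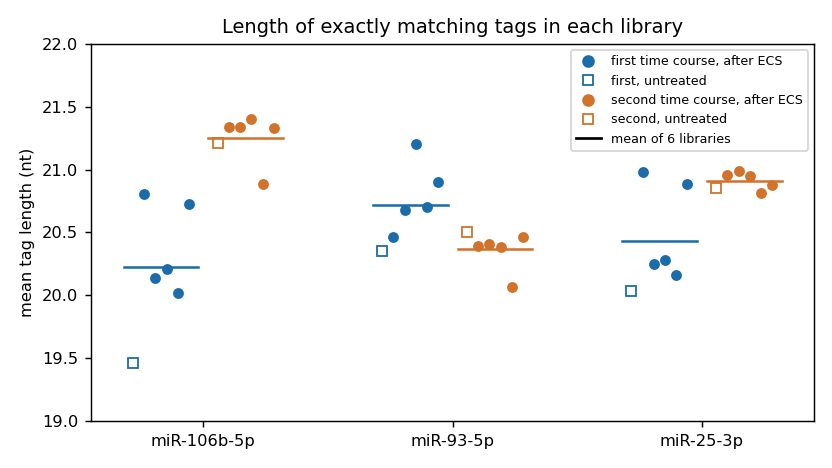
Mean length in nt of the exactly matching tags of 3 guide arms in each library, with the first time course in blue, the second in orange, squares for untreated libraries and bars for means of 6 libraries (the axis does not start at 0). For miR-106b-5p the first time course ended at 20.8 nt and the second began at 20.9 nt.

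Levels were next compared between the time courses over all 12 libraries, with the time after shock in the model (edgeR quasi-likelihood test with TMM scaling, a factor per library that centres most arms). Of the 11 member arms tested, 6 passed an adjusted p of 0.05, of which 5 were higher and 1 was lower in the second time course. Over all 469 arms, 32.2% passed (19.8% higher and 12.4% lower), so differing between time courses was common in these libraries. Both arms of miR-20a and miR-19b-3p met the filter through 1 time course only, so a difference in that direction was built into their selection. Of the 8 member arms that met the filter in each time course, 4 passed, all higher in the second, against 30.2% of the 364 arms of that kind. The median log2 fold change over all 469 arms was 0.29.

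miR-92a-3p, the AUUGCAC member of miR-17-92, was higher in the second time course. Its level was 15.9 CPM in NT-1, 13.1 CPM in 0.5h-1, 11.0 CPM in 1h-1, 4.66 CPM in 3h-1, 0 in 6h-1 and 15.3 CPM in 24h-1. It was 72.2 CPM in NT-2, 35.7 CPM in 0.5h-2, 142 CPM in 1h-2, 83.9 CPM in 3h-2, 14.4 CPM in 6h-2 and 66.7 CPM in 24h-2. In the second time course, 6h-2 alone fell within the range of the first. The log2 fold change was 3.40 (SE 0.61, edgeR adjusted p = 0.00203).

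Both arms of miR-25, of the same seed family, were also higher in the second time course. miR-25-3p differed by 1.77 on the log2 scale (SE 0.51, edgeR adjusted p = 0.0190) and miR-25-5p, with 63 counts in the first and 730 in the second, by 3.27 (SE 0.67, edgeR adjusted p = 0.00367). The call of miR-25-3p was lost with scaling to total miRNA counts (log2 fold change 1.15, edgeR adjusted p = 0.101), and also without 1h-1, 3h-1, 1h-2 or 3h-2 in turn (edgeR adjusted p from 0.0630 to 0.0758).

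In the miR-17 hairpin, miR-17-3p was higher in the second time course by 1.39 on the log2 scale (SE 0.47, edgeR adjusted p = 0.0339). Its levels were 28.1 CPM in NT-1, 67.8 CPM in 0.5h-1, 36.7 CPM in 1h-1, 10.7 CPM in 3h-1, 61.5 CPM in 6h-1 and 64.4 CPM in 24h-1. In the second they were 47.6 CPM in NT-2, 274 CPM in 0.5h-2, 77.7 CPM in 1h-2, 28.0 CPM in 3h-2, 40.9 CPM in 6h-2 and 60.6 CPM in 24h-2. The ranges overlapped, with 0.5h-2 far above the rest. This call was lost with total miRNA counts (edgeR adjusted p = 0.256), with no filter on low counts (0.0876), with tags that match 1 miRNA name only (0.0636) and in 9 of the 12 fits that left out a library. miR-17-5p was not called, with a log2 fold change of 0.95 (SE 0.66, edgeR adjusted p = 0.273).

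The arms of miR-20a stood apart in opposite directions, which the filter fixed. miR-20a-3p reached 10 counts only in 0.5h-1 and 1h-1, and miR-20a-5p only in 0.5h-2, 3h-2 and 24h-2, so their values are given as a description. The log2 fold change of miR-20a-3p was -3.32 (SE 0.83). miR-20a-5p had 0 counts in the first time course, and its level in the second was at least 7.06-fold higher, taken against 3 counts over the 6 libraries of the first. Over all arms 14.5% did not overlap between time courses, 2.77% being higher and 11.7% lower in the second.

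The other member arms did not pass. miR-106b-3p gave a log2 fold change of -0.99 (SE 0.50, edgeR adjusted p = 0.131) and miR-19b-3p, the partner of miR-19a, one of -1.69 (SE 0.75, edgeR adjusted p = 0.0950). miR-106b-5p, which like miR-93-5p is of the AAAGUGC family, stood at 0.60 (SE 0.48, edgeR adjusted p = 0.339) and miR-93-5p at 0.34 (SE 0.49, edgeR adjusted p = 0.617).

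The scaling bears on these directions. Scaling to total miRNA counts moved the median of all arms from 0.29 to -0.30 on the log2 scale. Under it 6 member arms were again called, but 3 higher (miR-92a-3p, miR-25-5p and miR-20a-5p) and 3 lower (miR-20a-3p, miR-19b-3p and miR-106b-3p), and over all arms 49 were higher and 113 lower. For miR-20a-5p, miR-20a-3p and miR-19b-3p, which met the filter through 1 time course only, this direction was built into the selection. miR-92a-3p and miR-25-5p kept their call and direction under TMM, DESeq2 size factors and total counts. The log2 fold changes of miR-106b-5p (-0.02) and miR-93-5p (-0.30) turned negative under total counts, without being called. The neuronal, erythroid, leukocyte and vascular sums given above were each lower in the second time course at 6 of 6 times, with miR-138, miR-144, miR-143 and miR-145 not overlapping, and short tags were rarer there. The leukocyte sum was nearly all miR-142, and miR-150, miR-223 and miR-451a had higher means in the second time course. The part of the marker miRNAs and of short tags in this comparison was not tested. Time course and library preparation or sequencing run cannot be told apart.

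**Figure D4:**
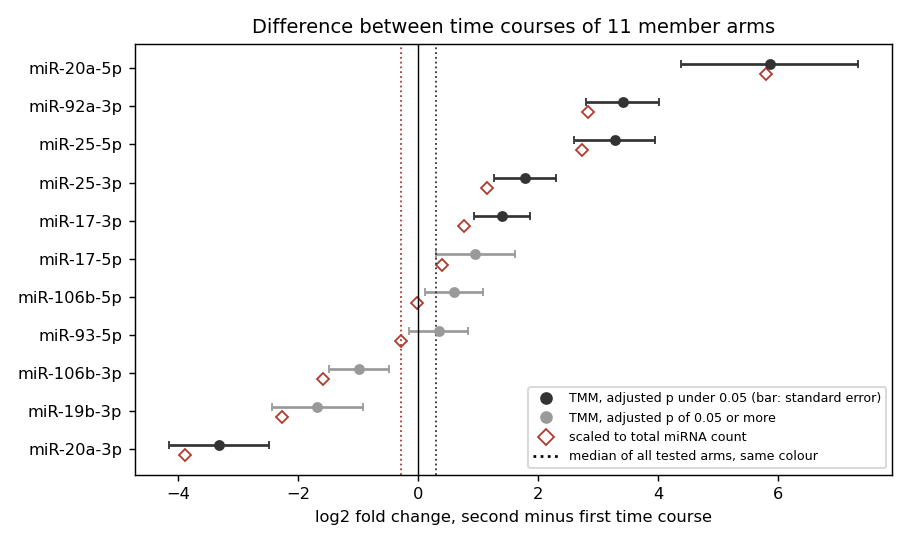
Log2 fold change of 11 member arms, second minus first time course, with TMM scaling (circles with bars of 1 standard error, black where the adjusted p was under 0.05) and with scaling to total miRNA counts (open diamonds). Dotted lines mark the median of all 469 arms, at 0.29 with TMM and -0.30 with total counts, and miR-92a-3p, miR-25-5p and miR-20a-5p lie to the right of both.

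The comparison the study was designed for is that of each time after ECS with untreated hippocampus, with 2 libraries a group. In a fit without a term for the time course, no member arm was called at 0.5, 1, 3, 6 or 24 h (edgeR quasi-likelihood test, lowest adjusted p = 0.988). The background was 0% at each time, since none of the 469 arms was called either. At an unadjusted p under 0.05 there were 0 member arms at every time, against 9, 2, 10, 9 and 7 of all arms, in order of time. DESeq2 called 1, 0, 2, 0 and 0 of all arms and 0 member arms, with 2 member arms under an unadjusted 0.05 at 0.5 h. Standard errors of the member arms lay between 0.95 and 3.09 on the log2 scale in the edgeR fit without the time course, so changes of the size of 1 SE were not detectable with it. With the time course as a block they lay between 0.77 and 2.27. That edgeR fit also called 0 of all arms at each time. At an unadjusted p under 0.05 it had 26, 12, 24, 32 and 24 of all arms and 1, 0, 0, 2 and 0 member arms.

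The values nearest to a difference were those at 0.5 h. miR-93-5p stood 1.98 above untreated on the log2 scale (SE 0.98, edgeR unadjusted p = 0.0656, adjusted p = 0.988) and miR-17-3p 2.26 above (SE 1.16, edgeR unadjusted p = 0.0734, adjusted p = 0.988). miR-93-5p had 8.87 CPM in NT-2, 93.2 CPM in 0.5h-2, 18.9 CPM in 1h-2, 19.5 CPM in 3h-2, 11.4 CPM in 6h-2 and 21.4 CPM in 24h-2. In the first time course it had 31.8 CPM in NT-1, 28.5 CPM in 0.5h-1, 34.5 CPM in 1h-1, 13.3 CPM in 3h-1, 22.8 CPM in 6h-1 and 26.6 CPM in 24h-1. Its high value at 0.5 h was thus in the second time course only.

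For miR-17 both time courses had their highest level at 0.5 h, in both arms. miR-17-5p had 24.5 CPM in 0.5h-1 against 19.7 CPM in NT-1, 6.61 CPM in 1h-1, 3.33 CPM in 3h-1, 0 in 6h-1 and 9.91 CPM in 24h-1. It had 34.1 CPM in 0.5h-2 against 5.60 CPM in NT-2, 5.10 CPM in 1h-2, 8.20 CPM in 3h-2, 15.9 CPM in 6h-2 and 12.4 CPM in 24h-2. These 2 of 11 member arms peaked at 0.5 h in both time courses, as did 3.41% of all 469 arms, and miR-106b-3p peaked at 1 h in both, as did another 3.41%. This pattern was picked out after its values were seen and carries no test.

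**Figure D5:**
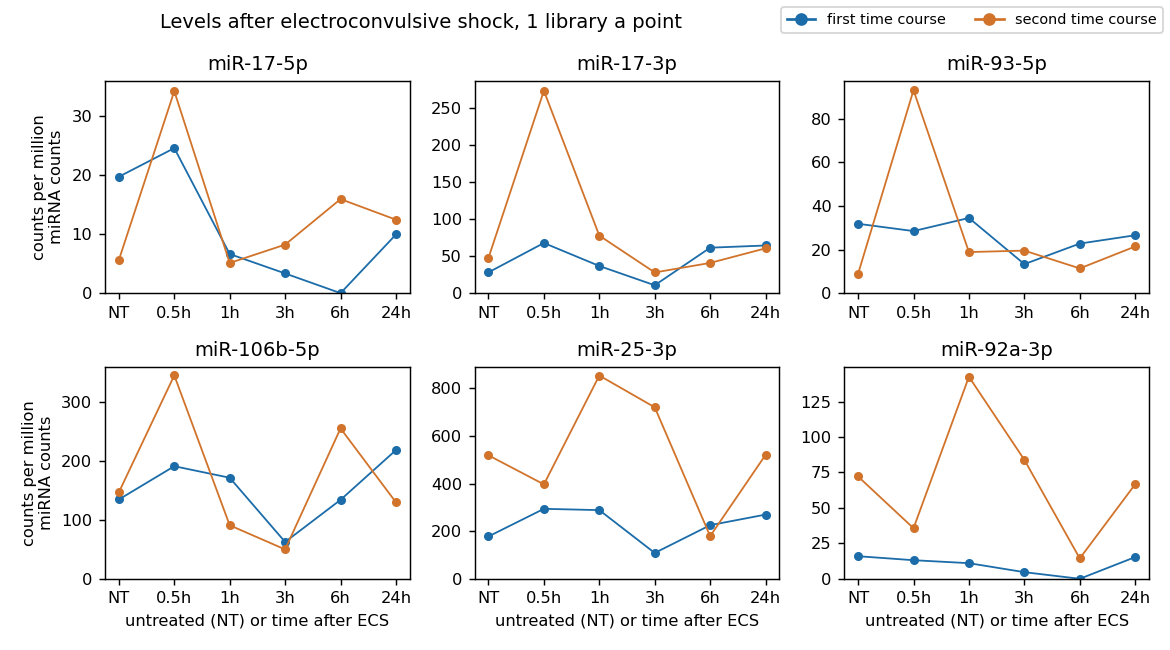
Level of 6 arms in untreated hippocampus (NT) and at 5 times after ECS, in CPM, with 1 library a point and the 2 time courses in blue and orange. The 0.5 h library of the second time course has the highest miR-17-3p (274 CPM), miR-93-5p (93.2 CPM) and miR-106b-5p (346 CPM) of all 12, while miR-25-3p and miR-92a-3p were highest at 1 h in that time course.

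Each time was also set against the untreated library of its own time course by the deposited labels, which conflict with the study's depths of NT-1 and NT-2. miR-106b-3p lay on the same side of untreated in both time courses at 5 of 5 times, below it at 4. Of all 469 arms, 6.4% did so at 5 times and 19.6% at 4. It had 168 CPM in NT-1, 90.6 CPM in 0.5h-1, 201 CPM in 1h-1, 66.6 CPM in 3h-1, 141 CPM in 6h-1 and 101 CPM in 24h-1. In the second time course it had 61.2 CPM in NT-2, 43.9 CPM in 0.5h-2, 104 CPM in 1h-2, 52.6 CPM in 3h-2, 11.4 CPM in 6h-2 and 18.3 CPM in 24h-2. miR-17-3p and miR-25-5p lay on the same side at 4 of 5 times, miR-19b-3p and miR-92a-3p at 3, miR-17-5p, miR-20a-3p, miR-106b-5p and miR-25-3p at 2 and miR-93-5p at 1. For miR-20a-5p, every library of the first time course had 0 counts, so it had no side there and could not be compared. miR-92a-3p and miR-19b-3p lay below NT-1 at 5 of 5 times in the first time course and below NT-2 at 3 of 5 in the second.

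Some marker lists also stood on 1 side of untreated within the time courses. The neuronal sum was below the untreated library of its time course in 9 of 10 libraries after ECS, and the oligodendrocyte sum was above it in 9 of 10. In the first time course the neuronal sum followed miR-124, with 261928 CPM in NT-1 and 34953 to 104288 CPM after it. There miR-128 (26758 CPM in NT-1, then 65054 to 88783 CPM) and miR-9 (14553 CPM, then 17164 to 28482 CPM) lay above NT-1 throughout. miR-132 and miR-138 lay on both sides of it. In the second, miR-128 had 70784 CPM in NT-2 and 34350 to 61830 CPM after it, while miR-124 lay on both sides. The oligodendrocyte sum was 2728 CPM in NT-1 and 7435 to 13952 CPM after it, and 8364 CPM in NT-2 and 3922 to 18207 CPM after it. The erythroid and the leukocyte sums were below untreated in 7 of 10, and the vascular and the choroid plexus sums in 5 of 10. In the first time course the erythroid sum followed miR-144, with 1961 CPM in NT-1 and 179.7 to 1643 CPM after it. There miR-451a (4.68 CPM in NT-1, then 11.99 to 63.7 CPM) and miR-486 (27.2 CPM, then 54.6 to 159 CPM) lay above NT-1 throughout. In the second, each of these erythroid miRNAs lay on both sides of NT-2. The leukocyte sum was nearly all miR-142. The part of these lists in the values after ECS was not tested.

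Paralogs of the members from the X chromosome were rare. The 4 miRNAs particular to the paralogous miR-106a-363 cluster had 263 counts, 0.000876% of the total. Of these, miR-363-5p held 197 and miR-363-3p, of the AUUGCAC family, 59. miR-106a-5p, which differs from miR-17-5p by U10A alone, had 1 count, and miR-20b-5p had 3. miR-18b-5p had 0 of 30022027 counts.

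Of the other miRNAs with a member's seed, miR-92b-3p was the abundant one, at 15673 counts and a higher mean level than any member arm:
miR-92b-3p: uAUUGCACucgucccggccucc
It differs from miR-92a-3p by U10C and G21C over 21 positions. Its mean was 574 CPM ± 390 (SD, n = 12), and the means of the 2 time courses were 674 ± 527 and 474 ± 179 CPM (SD, n = 6 each). It was thus lower in the second by its mean, although higher there at 4 of 6 times. miR-32-5p had 27 counts, and miR-367-3p and miR-6383-5p had 0.

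Arms outside the clusters were ranked by how closely their levels followed each cluster, as Spearman's rho with the summed guide arms over 12 libraries, after the mean of each time course was removed. Among 207 arms that reached 10 counts in each library, the 3 closest to miR-17-92 were miR-125a-5p (rho 0.944), miR-1843a-5p (0.888) and miR-744-5p (0.832), where the median arm had 0.105. The 3 closest to miR-106b-25 were miR-382-5p (0.944), miR-218-3p (0.930) and miR-99b-3p (0.930), with a median of 0.196. All of these points share the libraries and their depth, and the values are descriptions.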

How the data were processed

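For each of 12 libraries the authors deposited raw read counts per distinct tag of 18 to 34 nt, after adapter removal by their miR-Intess pipeline (Illumina Genome Analyzer IIx reads) and without normalization. An aligner version is not given in the sources used here. Tags were matched over their full length to the hairpins of GENCODE release M21 (GRCm38), and a tag fitting several names was split equally. Exact matching leaves out tags with errors or added 3′ bases. Arms that reached 10 counts in 2 or more libraries were tested with edgeR 4.0.16 (R 4.3.3) and Benjamini-Hochberg adjustment over all of them, at 0.05. DESeq2 1.42.0, other scalings, filters and matching, and leaving out libraries were alternatives. The tests were checked on simulated counts. For the comparison after ECS these held no difference between time courses, so that check does not cover the difference present in these libraries. Permutation tests enumerated all flips, with a pseudocount of 0.5 counts for ratios. Intervals cover counting error only, since PCR reads carried no molecular identifiers.

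The members, lists and tests were chosen with earlier results of these data known. Named arms were all member arms with a count, the miR-106a-363 cluster, miRNAs sharing a member's seed, marker lists, and the 3 arms most like each cluster. Replicate numbers mark the time course in the study, but its depths of NT-1 and NT-2 are the reverse of the deposited ones. Libraries of a time course deviated together (mean correlation 0.567, from 0.363 to 0.812 over 15 pairs of times, 212 arms). Libraries of the same time were therefore taken as paired in tests between time courses. The main fit for the times after ECS had no term for the time course, and a replicate block was an alternative. The 2 libraries of a group differed by more than sampling noise in all 6 groups.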

Additional observations from a re-analysis of the deposited data

Results flagged for a closer look

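A library was picked out where its value lay far from the other 5 of its time course (Dixon's criterion). Of 36 sets of 6 values checked, 8 were picked out, where chance gives about 1 in 20, or 1.8, if the sets are independent and normally distributed. These sets are not, since they include shares that are mostly 0 and both arms of a hairpin in the same libraries. The 2 numbers therefore cannot show an excess over chance. In the second time course 0.5h-2 had the highest miR-17-5p at 34.1 CPM (others 5.10 to 15.9), the highest miR-17-3p at 274 CPM (others 28.0 to 77.7) and the highest miR-93-5p at 93.2 CPM (others 8.87 to 21.4). In the first, 0.5h-1 had the highest miR-20a-3p at 21.1 CPM (others 2.00 to 8.08). The share of miR-93-3p was 4.76% in 3h-1, which is 1 count, with 0 in the others, and 3.90% in 1h-2, which is 3 counts, with at most 1.12% in the others. Mean tag length was lowest in 6h-2 for miR-106b-5p, at 20.9 nt (others 21.2 to 21.4), and for miR-93-5p, at 20.1 nt (others 20.4 to 20.5). The library 6h-2 also had the fewest miRNA counts of the second time course, 1321437, and the part of depth in these values was not tested.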

How the results depend on the processing

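Of the 6 member arms called between time courses (5 higher, 1 lower), scaling to total miRNA counts gave 3 higher and 3 lower, DESeq2's Wald test gave 3 lower, and a model without the time point gave 2 lower. These counts include both arms of miR-20a and, where called, miR-19b-3p, for which the main filter had built in the direction. A filter of at least 10 counts in every library left 2 called, 2 higher and 0 lower, since it removes most member arms from the test. Leaving out 1 library at a time gave 3 to 6 called, 3 to 5 higher and 0 to 1 lower. Without 1h-1 there were 3 called, 3 higher and 0 lower, and without 0.5h-1 there were 0 lower, because miR-20a-3p then misses the filter. Without 3h-1, 1h-2 or 3h-2 in turn there were 3 higher. Leaving out NT-1 and 6h-1 together, an alternative chosen after seeing the data, gave 6 called. Signs turned for miR-106b-5p (-0.0187) and miR-93-5p (-0.30) under total counts and for miR-93-5p without 0.5h-1 (-0.0340, and up to 0.72 without other libraries), for the miR-17-3p share without the untreated pair (-1.19 percentage points, and up to 10.5 without the 6 h pair) and for the miR-93-3p share with the first 18 nt matching (-0.0422), without the 1 h pair (-0.62) and without the 24 h pair (-0.06). With the first 18 nt matching, 3 guide arms differed in length and the miR-93-5p difference was 1.11 nt. As a share of accepted reads the miR-106b-25 sum was 0.0297%. The causes were not tested. The pairing of time courses as a replicate block left 0 member arms called at each time after ECS, with 1 at 0.5 h and 2 at 6 h under an unadjusted 0.05, and changed no call. Of the 4 neighbour pairs that differed in level, 3 did with a pseudocount of 0.1 and 3 to 4 without 1 library. Depth limits miR-18a, miR-19a and miR-20a most.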

Other observations

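Matching only the first 18 nt of a tag admits bases at the 3′ end that the genome does not encode, and it added the most to miR-93-5p, whose counts rose from 879 to 1661, or 1.89-fold. Over the other 15 member arms with counts the ratio lay between 1.00 and 1.41.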
